A study of Heterocephalus glaber and Mus musculus with 6 samples.

Results

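CDK inhibitor genes encode proteins that bind or dephosphorylate cyclin-dependent kinases (CDKs) and so slow the cell cycle. They were read in epidermal keratinocytes of FVB mice. The genes were chosen by symbol, with earlier results of these data known: Cdkn1a, Cdkn1b, Cdkn1c, Cdkn2a, Cdkn2b, Cdkn2c, Cdkn2d and Cdkn3. Of these 8 genes, 4 had a row of their own in the mouse count tables, which hold 54364 rows each: Cdkn1c, Cdkn2a, Cdkn2c and Cdkn3. Cdkn1a, Cdkn1b, Cdkn2b and Cdkn2d had no row under their own identifier and are not analysed here. A row was present for 14605 of 21951 protein-coding genes of the annotation (66.5%). The tables also hold 11689 assembled loci that carry no gene name, so the lack of a row says nothing of whether a gene was transcribed.

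The mice were 7 to 8 weeks old, and no treatment, transgene or mutation is named in the labels. Dorsal epidermis was split from the dermis with dispase, dissociated, and sorted for CD49f, the integrin alpha-6 chain of basal keratinocytes. RNA was depleted of ribosomal RNA and made into directional libraries, of which there were 3 for the mouse. The study also holds 3 libraries from naked mole-rats of 6 to 7 months, whose tables share 0 Ensembl identifiers with the mouse tables, so no member was compared between species. The labels do not say whether each mouse library came from its own animal, so the spread between them may be technical in part.

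Among CDK inhibitors, the INK4 proteins (Cdkn2a to Cdkn2d) bind CDK4 and CDK6 and keep them from cyclin D, while the CIP/KIP proteins p21, p27 and p57 (Cdkn1a, Cdkn1b, Cdkn1c) act mainly on cyclin E and cyclin A complexes of CDK2. Cdkn3 encodes a phosphatase that removes an activating phosphate from CDK2. In epidermis, p21 and p27 are known for the exit of keratinocytes from the cell cycle, and Cdkn2a for senescence and as a tumor suppressor locus held silent by Polycomb proteins. From different first exons Cdkn2a makes p16INK4a, which binds CDK4 and CDK6, and p19ARF, which blocks the p53 inhibitor Mdm2.

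The Cdkn2a sequences are shown because 1 count per library stands for both products. The gene (ENSMUSG00000044303) lies on the minus strand of chromosome 4 from 89274471 to 89294653 (GRCm38, GENCODE vM21). The coding parts of the alternative first exons, read 5′ to 3′ from the GENCODE transcripts with the start codon in capitals, are at chr4:89281986-89282111 for p16INK4a (Cdkn2a-201, 126 bases) and chr4:89294334-89294523 for p19ARF (Cdkn2a-202, 190 bases).
p16INK4a exon 1: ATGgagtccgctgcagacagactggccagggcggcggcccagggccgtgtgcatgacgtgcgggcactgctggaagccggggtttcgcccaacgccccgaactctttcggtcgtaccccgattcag
p19ARF exon 1: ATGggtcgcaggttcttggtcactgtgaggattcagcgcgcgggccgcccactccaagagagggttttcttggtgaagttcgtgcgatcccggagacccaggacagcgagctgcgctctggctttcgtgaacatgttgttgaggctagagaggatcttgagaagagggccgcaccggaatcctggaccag

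Both transcripts then use the same exon 2 of 341 bases, read in different frames. Its first 60 bases (chr4:89276926-89276985, minus strand) are given for each product, with the first whole codon of that frame in capitals.
p16INK4a frame: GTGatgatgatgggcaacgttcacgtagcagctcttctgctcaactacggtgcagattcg
p19ARF frame: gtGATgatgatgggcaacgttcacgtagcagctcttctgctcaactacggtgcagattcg
A read inside exon 2 therefore cannot be given to either product, and the deposited count holds no exon detail. Cdkn2b, the neighbour 11646 bases away on the same strand, resembles Cdkn2a in sequence. The longest exact run shared by their transcripts was 23 bases long, in exon 2 of Cdkn2a (chr4:89276855-89276877, minus strand).
Shared run: cgggaaggcttcctggacacgct
No run of 25 bases or more was shared between Cdkn2a and Cdkn2b, nor between any other pair of the 8 genes. The longest run between any pair was 23 bases, reached by Cdkn2a with Cdkn2b and by Cdkn1a with Cdkn1b.

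**Figure D1:**
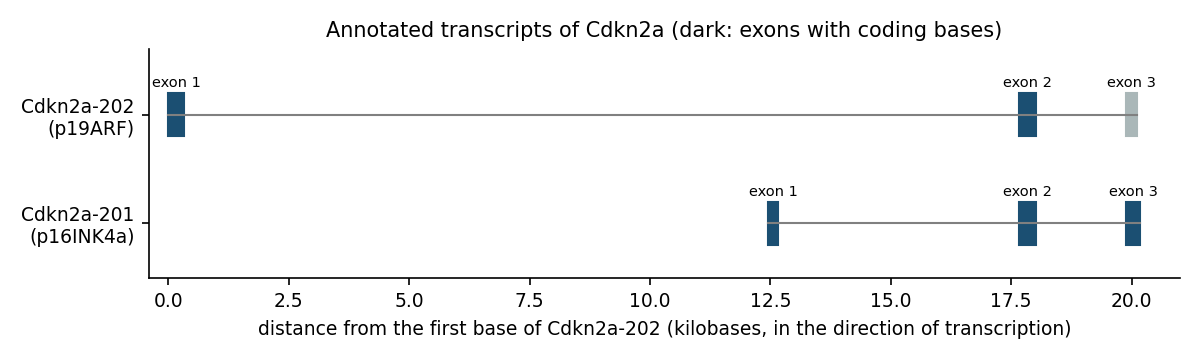
Annotated transcripts of Cdkn2a, with distance in kilobases from the first base of Cdkn2a-202 on the x axis; boxes are exons (dark with coding bases, light without) and lines are introns. The transcripts have separate first exons and the same exon 2 of 341 bases.

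Library totals were 52499080, 53465434 and 52970733 counts in mouse libraries 1, 2 and 3, and rows with an Ensembl identifier took 11.4%, 11.5% and 10.6% of them. Library 1 had 3483 counts of the Y-linked gene Ddx3y and libraries 2 and 3 had 0, so library 1 held cells of an animal that was not in libraries 2 and 3. Of 16 keratinocyte markers, 4 had a row (Itga2, Krt2, Dsc2, Tgm3). The summed level of these was 65.0 to 81.4 CPM, or counts per 1000000 counts of the library, mostly from Itga2 (42.4 to 53.5 CPM). The defining markers Krt5, Krt14 and Itga6 had none, so the label of the sorted cells was only partly checked. All 5 endothelial markers had a row. Their summed level was 0.208 to 0.267 CPM, with Kdr, Cdh5 and Emcn at 0 in each library. Of 7 fibroblast markers, 4 had a row, with a sum of 0.495 to 0.673 CPM. Of 5 melanocyte markers, 4 had a row, with a sum of 0.243 to 0.533 CPM. Leukocyte markers, described below, had the highest sum of these lists, at 2.36 to 4.87 CPM.

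Cdkn2c, which encodes the INK4 protein p18INK4c, was the highest of the 4 CDK inhibitor genes with a row. It lies on chromosome 4 from 109660876 to 109667189 (minus strand, ENSMUSG00000028551). It had 652, 687 and 612 counts in libraries 1, 2 and 3, or 12.4, 12.8 and 11.6 CPM. The mean was 12.3 ± 0.66 CPM (SD, n = 3). All 3 libraries lay close together, and their exact 95% Poisson counting intervals overlapped: 11.5 to 13.4, 11.9 to 13.8 and 10.7 to 12.5 CPM. Such intervals cover counting error only, and hold only if the deposited values are numbers of reads, which was not known.

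Cdkn3, the CDK2 phosphatase gene, was the next in CPM. It lies on chromosome 14 from 46760541 to 46771669 (plus strand, ENSMUSG00000037628). Its counts were 79, 71 and 31, or 1.505, 1.33 and 0.585 CPM in libraries 1, 2 and 3, with a mean of 1.14 ± 0.488 CPM (SD, n = 3). Library 3 was low, and its counting interval of 0.398 to 0.831 CPM did not overlap those of library 1 (1.19 to 1.88) and library 2 (1.04 to 1.68).

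Cdkn1c encodes the CIP/KIP protein p57KIP2 and is an imprinted gene expressed mainly from the maternal allele. It lies on chromosome 7 from 143458339 to 143461050 (minus strand, ENSMUSG00000037664). It had 45, 44 and 25 counts, or 0.857, 0.823 and 0.472 CPM, with a mean of 0.717 ± 0.213 CPM (SD, n = 3). Library 3 was again the lowest, but its counting interval of 0.305 to 0.697 CPM overlapped those of library 1 (0.625 to 1.15) and library 2 (0.598 to 1.105). The antisense gene Gm44732 covers 625 exon bases of Cdkn1c and had 0, 3 and 8 counts. The library kit keeps the strand, but no source used here says whether the counting used it, so reads of this gene pair may not have been kept apart.

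Cdkn2a was at or near 0. Its row held 0, 5 and 0 counts in libraries 1, 2 and 3, so that all of its counts came from library 2. A count of 0 allows up to 0.0571 CPM in library 1 and 0.0566 CPM in library 3, taking 3 counts as the limit. The 5 counts of library 2 correspond to 0.0935 CPM, with an exact 95% Poisson interval of 0.0304 to 0.218 CPM. The same interval for 0 counts reaches 0.0703 CPM in library 1 and 0.0696 in library 3. The lower end of the library 2 interval is under these limits, but overlap of such intervals does not test a difference. On so few counts, a difference of Cdkn2a between libraries was not tested. Such rows were common: 6057 of the 14605 protein-coding rows were at 0 in all 3 libraries and 957 were at 0 in exactly 2. The lincRNA gene Gm12606, 1068 bases from Cdkn2a on the other side from Cdkn2b, had 5, 0 and 0 counts.

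**Figure D2:**
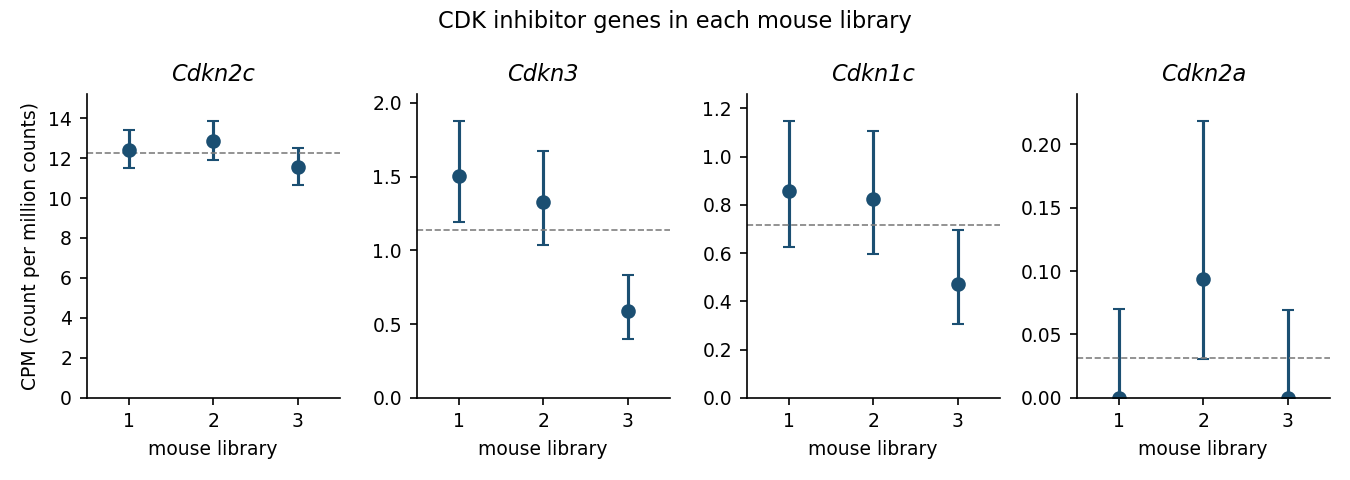
CPM of Cdkn2c, Cdkn3, Cdkn1c and Cdkn2a in mouse libraries 1 to 3, each panel with its own linear axis from 0; points are single libraries, bars are exact 95% Poisson counting intervals and the dashed line is the mean of the 3 libraries. Cdkn3 and Cdkn1c were lowest in library 3, while the 5 counts of Cdkn2a were all in library 2.

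Per kilobase of exon, the order of levels was Cdkn2c, Cdkn3, Cdkn1c and Cdkn2a. Cdkn2c had 4.57 ± 0.246 CPM per kilobase (SD, n = 3), higher than 88.8% of the protein-coding rows. These 14605 rows include the 6057 at 0 in all 3 libraries. By the same measure Cdkn3 was above 66.1% of them, Cdkn1c above 64.5% and even Cdkn2a above 50.2%. Cdkn3 had 0.481 ± 0.206 CPM per kilobase and Cdkn1c 0.352 ± 0.105. Cdkn2c ranged from 4.30 to 4.78, well apart from the highest Cdkn3 value of 0.635, and exceeded Cdkn3 by 7.29-, 8.54- and 17.4-fold in libraries 1, 2 and 3. The ranges of Cdkn3 and Cdkn1c overlapped (0.247 to 0.635 and 0.231 to 0.420 CPM per kilobase), although Cdkn3 was the higher in 3 of 3 libraries. The ratio of Cdkn3 to Cdkn1c was 1.51, 1.39 and 1.07 in libraries 1, 2 and 3. Both genes were lowest in library 3, which widens both ranges, and the order of these neighbours was not tested. Cdkn2a reached 0.0798 CPM per kilobase in library 2, below the lowest Cdkn1c value of 0.231.

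**Figure D3:**
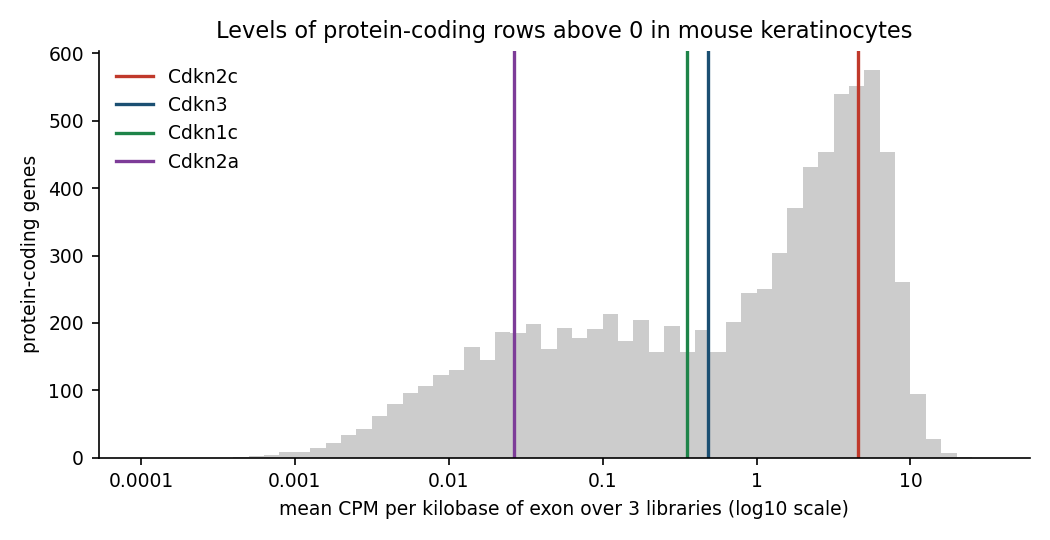
Mean CPM per kilobase of exon over the 3 mouse libraries (log10 x axis) for protein-coding rows above 0 (grey histogram, y axis in genes), with a vertical line for each of the 4 CDK inhibitor genes. Cdkn2c at 4.57 lies within the tall peak at high levels, and Cdkn3, Cdkn1c and Cdkn2a lie on the low shoulder.

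The CDK inhibitor genes varied unequally between libraries. The standard deviation of log2 CPM over the 3 libraries, with 0.5 added to each count, was 0.078 for Cdkn2c. Over 1432 genes of similar mean count (within 1.5 times), the median was 0.14, and 22.2% had a smaller value than Cdkn2c. For Cdkn3 it was 0.73, beside a median of 0.35 over 1366 genes of similar count, 90.3% of which had a smaller value. Cdkn1c, at 0.47, was near the middle of its 1477 genes (median 0.42). Cdkn3 was therefore among the more variable genes at its depth, though under the 95th percentile of its genes of similar count (0.887). Cdkn2c and Cdkn1c were also within the usual range.

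In library 3, 2 of the 3 CDK inhibitor genes with a mean of at least 10 counts were at least 1.5-fold lower than the mean of the other libraries (Cdkn3 and Cdkn1c), where 15.4% of all 9988 genes with that mean count were. This share depends on the count: it was 24.8% among genes of similar count to Cdkn1c, 19.9% for Cdkn3 and 4.40% for Cdkn2c. The median difference over all 9988 genes was −0.099 on the log2 scale. Cdkn3 differed by −1.26 (log2), and its ratio to libraries 1 and 2 summed was 0.413, with an exact counting interval of 0.271 to 0.612. Among genes of similar count, 4.61% lay lower than Cdkn3 in library 3. Cdkn1c differed by −0.82, a ratio of 0.562 (0.345 to 0.884), and 15.98% of genes of similar count lay lower. Cdkn2c differed by −0.13, a ratio of 0.914 (0.830 to 1.01), close to the median of all genes. All 3 were lowest in library 3, as were 47.6% of the 9988 genes, and remained so with trimmed-mean (TMM) scaling, which gave Cdkn2c 12.3, 12.6 and 11.9 CPM. With 1 library against 2 there is no test of these differences.

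Genes whose 3 values were nearest to those of each member were found by the Euclidean distance of log2 CPM among 6605 other protein-coding genes. Fam13a, with 1.47, 1.27 and 0.661 CPM, was nearest to Cdkn3 (distance 0.19), followed by Gm45140 (0.25) and Usp11 (0.27). A3galt2 (0.093), Pkdcc (0.15) and Lpar3 (0.16) were nearest to Cdkn1c, and Slc39a14 (0.025), Mrpl45 (0.031) and Larp7 (0.050) to Cdkn2c. Distances over 3 libraries reflect level as much as pattern.

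Of the kinases and cyclins on which CDK inhibitors act, and the activators of these kinases, 10 of 21 had a row. Cdk4 and Cdk6, whose products INK4 proteins bind, had none, nor did the cyclin D genes Ccnd1, Ccnd2 and Ccnd3 or Cdk2. In library 3, 6 of the 9 measured genes were at least 1.5-fold lower, beside 15.4% of all genes, and the list median was −0.84 (log2), beside −0.099 over all genes. Cdk1, the mitotic kinase, had 9.54, 9.05 and 4.21 CPM in libraries 1, 2 and 3. Cyclin B2 (Ccnb2) had 6.84, 3.91 and 2.00 CPM, and cyclin B1 (Ccnb1) 14.4, 9.50 and 4.85. Cdc25c, a phosphatase that activates Cdk1, had 3.71, 2.23 and 0.887 CPM. The other genes past the threshold were Ccna2, cyclin A2, at 18.9, 17.6 and 10.2 CPM and Ccne1, cyclin E1, at 3.18, 3.07 and 1.81 CPM. Pkmyt1, an inhibitory kinase of Cdk1, had 19.98, 20.8 and 18.7 CPM, a difference of −0.13 in library 3. Cdc25a had 31.7, 25.5 and 22.8 CPM, a difference of −0.32 that was not past the threshold. In these values the cyclins of S phase and mitosis were low in the library in which Cdkn3 was low, while Pkmyt1 stayed as close to the other libraries as Cdkn2c did.

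Like Cdkn3 and Cdkn1c, all 9 measured proliferation markers were lowest in library 3, as were 47.6% of all genes. Cdkn1c itself varied within the usual range of genes of similar count. Of 18 markers, 9 had a row, and 7 of these 9 were at least 1.5-fold lower in library 3, beside 15.4% of all genes, with a median of −1.14 (log2). Their summed level was 215, 210 and 123 CPM in libraries 1, 2 and 3. Mki67 and Top2a had no row. Cenpf, a kinetochore protein gene, differed by −1.64 and Bub1b, a spindle checkpoint kinase gene, by −1.38. Not past 1.5-fold were Pole, at −0.52, and Pola1, at −0.35, which had the highest levels per kilobase of the measured markers. Of 8 leukocyte markers, 5 had a row, with a summed level of 2.50, 2.36 and 4.87 CPM and no marker at 0 in all libraries. In library 3, 4 of these 5 were at least 1.5-fold higher, beside 8.09% of all genes. That share was 3.09% with a mean of at least 50 counts, and so above 8.09% at lower counts. All of the 5 but Itgam had lower counts. Ptprc had 24, 41 and 48 counts and Cd3g 6, 29 and 37, lowest in library 1, while Itgam had 78, 48 and 105. Lyz2, lysozyme, had 0, 0 and 59 counts, or 1.11 CPM of the library 3 sum, while Aif1, a macrophage marker, was lower there than the mean of the others, with 23, 8 and 9 counts. The part of either list in the Cdkn3 and Cdkn1c values was not tested. In RNA from a pool of cells, fewer cells of a type and less RNA per cell cannot be told apart.

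Downstream of the inhibitors are the retinoblastoma proteins and E2F factors. Of 19 genes of this group, 12 had a row, 0 of which were 1.5-fold lower in library 3, where 15.4% of all genes were. All 12 had a mean of at least 50 counts, where the share was 8.88%, so 0 of 12 is near the background. The list median was −0.26 (log2). Without library 2, 1 of the 12 was lower. Rb1 and Rbl2 had no row. Rbl1, the p107 relative of the retinoblastoma protein, had 44.4, 44.1 and 36.8 CPM. The transcription factor gene E2f1 had 20.2, 24.5 and 18.6 CPM, and E2f7, a repressive E2F, 7.90, 5.54 and 4.68 CPM. Per kilobase, Rbl1 had 6.97 ± 0.717 and E2f1 6.68 ± 0.965 CPM (SD, n = 3 each), levels above the 4.57 of Cdkn2c.

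On the p19ARF side, 1 of 10 genes of the p53 family and its ARF partners had a row: Trp73, at 46.4, 47.1 and 34.0 CPM. Trp53, Mdm2 and Trp63 had none. Of 25 p53 target genes 8 had a row and 0 were 1.5-fold lower in library 3, with a median of −0.17 (log2). Beside 15.4% of all genes, or 8.88% of those with a mean of at least 50 counts, 0 of 8 is near the background. Without library 2 the count was 2. Ddb2, a DNA damage recognition gene, had 19.5, 21.7 and 18.7 CPM, and Zmat3, a p53-induced RNA-binding protein gene, 47.8, 45.7 and 39.6. Gadd45a, a stress-induced growth arrest gene, had 4.61, 3.59 and 2.89 CPM. The other direction was taken by 3 of the 8: Eda2r, a TNF receptor family gene, by 0.32, Tigar, a regulator of glycolysis, by 0.20 and Aen, an apoptosis-associated nuclease gene, by 0.13 (log2).

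Of 25 Polycomb genes, 14 had a row, with mean levels from 0.221 (Cbx6) to 9.74 (Suz12) CPM per kilobase. Cdkn2a, whose locus Polycomb proteins are known to repress, had 0.0266. Suz12, a subunit of Polycomb repressive complex 2, had 9.74 ± 1.104 (SD, n = 3). Ezh2, its methyltransferase, had 8.29 ± 0.687 CPM per kilobase. Bmi1, a subunit of Polycomb repressive complex 1, had 7.51 ± 0.661, and its partner Rnf2, a ubiquitin ligase, 7.92 ± 0.307. Cbx7, a chromodomain protein of the same complex, had 27.03, 25.4 and 34.4 CPM and was highest in library 3. Library 3 was 1.5-fold lower for 1 of the 14 genes, Cbx6, at 2.13, 3.37 and 1.55 CPM, beside 15.4% of all genes. Among genes with a mean of at least 50 counts, which include all 14, the share was 8.88%. The list median of −0.13 (log2) was close to that of all genes.

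Of 17 other regulators of Cdkn2a, 7 had a row. Dmtf1, an activator of p19ARF transcription, had 50.4, 49.98 and 50.01 CPM and Ets1, an activator of p16INK4a, 21.4, 20.9 and 15.0. Tbx3, a T-box repressor of p19ARF, had 42, 66 and 0 counts, and was the 1 of 6 measured genes of this list at least 1.5-fold lower in library 3, a share near the 15.4% of all genes. The list median was −0.17 (log2).

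Of 15 genes for the turnover of p21, p27 and p57, 3 had a row: Skp2, the F-box protein that marks p27, at 11.8, 9.13 and 7.76 CPM, Dtl, the adaptor for p21 breakdown, at 33.2, 32.7 and 25.3, and Cul4b, a scaffold of the same ligase, at 36.6, 30.1 and 30.3. Of these 3, 0 were 1.5-fold lower in library 3, beside 15.4% of all genes, and their median was −0.38 (log2). TGF-beta is known to induce Cdkn2b. Of 13 genes of its pathway and related factors, 6 had a row and 0 were 1.5-fold lower, beside 15.4% of all genes, with a median of −0.28. Among genes with a mean of at least 50 counts, which include all measured genes of both lists, the share was 8.88%. Tgfbr2, a receptor, had 65.3, 61.5 and 48.6 CPM and Smad3, a signal transducer, 25.4, 29.5 and 21.8.

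Of 10 genes used as signs of senescence, 6 had a row, most on few counts. In library 3, 3 of 5 measured genes were at least 1.5-fold lower, beside 15.4% of all genes, with a median of −0.77 (log2). The share was 24.8% among genes of similar count to Cdkn1c, a count close to that of Il6. Cxcl1, a chemokine, had 4.55, 3.09 and 2.08 CPM. Mmp3, a matrix protease, had 1.22, 0.991 and 0.642 CPM, and the cytokine gene Il6 had 51, 43 and 21 counts. Igfbp5 went the other way, at 1.39, 4.68 and 3.51 CPM. The senescence genes thus did not share 1 pattern across the libraries.

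**Figure D4:**
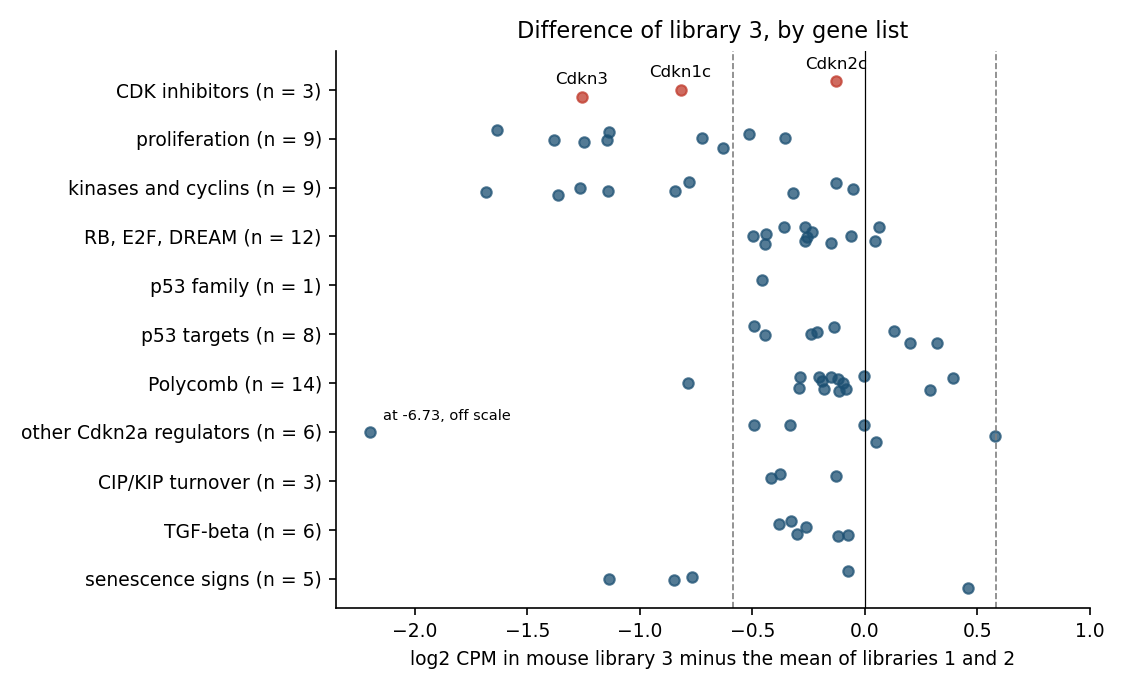
Log2 CPM in mouse library 3 minus the mean of libraries 1 and 2 (x axis), with 1 point per gene with a mean of at least 10 counts and 1 row per gene list; dashed lines mark 1.5-fold, and 1 gene (Tbx3, at −6.73) lies off the scale. Cdkn3 (−1.26) and Cdkn1c (−0.82) lie at values also reached by proliferation, kinase, cyclin and senescence genes, and Cdkn2c (−0.13) lies near the median of all genes (−0.099).

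Over all 10 lists together, 76 of 172 genes had a row (44.2%), and 18 of the 73 measured genes were at least 1.5-fold lower in library 3, where 15.4% of all 9988 genes were. At least 1.5-fold higher were 0 of the 73, and 8.09% of all genes. With a mean of at least 50 counts, 16 of 68 were lower, beside 8.88% of 6722 genes. Of these 68, 0 were higher, beside 3.09%, which is near the background. A gene without a row may have its reads under an assembled locus, and a gene with a row may have only part of its reads there. Each level above is therefore a value of that row.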

How the data were processed

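Raw counts per gene or assembled locus were deposited by the authors as 1 table per library. Per the submitters' processing notes, cutadapt, FastQC, Bowtie2 and TopHat2 were used with mm10; no source used here gives the counting program or its strand setting. In mouse library 1, 641 rows held a count of 1 and 781 a count of 3, so values may be whole numbers made from estimated coverage. In that case the counting intervals of levels and ratios are not exact, and small counts such as those of Cdkn2a may not be numbers of reads. Mouse identifiers were joined to GENCODE vM21 (GRCm38), in which 42457 of 42675 matched.

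CPM used all counts of a library. Levels per kilobase used the union of annotated exons. Differences between libraries used log2 CPM with 0.5 added, over genes with a mean of at least 10 counts, and a 1.5-fold threshold. The 3 mouse libraries form 1 group, so no test was made. TMM factors came from edgeR 4.0.16 (R 4.3.3), intervals from scipy 1.17.1, tables from pandas 2.3.3 and numpy 2.4.6, and plots from matplotlib 3.10.9, under Python 3.11.15. The steps were tested on simulated data.

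The members and lists were chosen with earlier results of these data known. Genes to be named were the members, the 3 nearest genes and flanking genes. Of each list, they were the 5 highest per kilobase and the 3 most variable (mean of at least 50 counts). Examples of all these are given, and some are left out. Cdk1 and Ccne1, both past the threshold in library 3, were added after their values were seen. A further gene of the senescence list is not reported here and was left out of its counts.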

Additional observations from a re-analysis of the deposited data

How the results depend on the processing

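Of 92 alternative values for 24 results, 78 moved by less than 1 SD over libraries (levels) or by no more than 1.5 times (counts of genes and SDs of log2 CPM), and 14 moved further. Leaving out 1 of 3 libraries cannot move a mean level by 1 SD. Those values were therefore bound to be among the 78 and say nothing of stability. With counts in Ensembl rows alone as the denominator, mean levels were 109.7 CPM for Cdkn2c, 10.1 for Cdkn3, 6.36 for Cdkn1c and 0.271 for Cdkn2a, which follows from the smaller total. With the longest transcript as length, Cdkn2c had 4.97 CPM per kilobase. Without mouse library 2 the Cdkn2a mean was 0. With a minimum mean of 50 counts, 1 of 2 CDK inhibitor genes (Cdkn3) and 0 of 3 other Cdkn2a regulators were 1.5-fold lower in library 3, where 8.88% of 6722 genes were. With TMM scaling, 1 pathway gene was 1.5-fold higher in library 3. Leaving out library 1 or library 2 in turn gave 0 to 1 lower genes for the retinoblastoma and E2F list, 0 to 2 for p53 targets, 0 to 1 for Polycomb genes, 1 to 2 for the other Cdkn2a regulators, 0 to 1 for the turnover genes, and 0 to 2 higher genes over all lists. It left both Cdkn3 and Cdkn1c lower (2 of 3).

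No paired analysis was possible because the mouse libraries form 1 group and no gene was matched to the naked mole-rat libraries. Depth limits Cdkn2a most, and Cdkn1c and Cdkn3 rest on 25 to 79 counts per library.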
